A study of Saccharomyces cerevisiae with 8 samples.

Results

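The NOP, UTP and RRP genes of Saccharomyces cerevisiae encode nucleolar proteins, proteins bound to the U3 RNA and ribosomal RNA processing proteins, all needed to make ribosomes. They were taken here as every target whose standard symbol is NOP, UTP or RRP followed by a number, which gave 53 of 6713 targets. By known role, 31 belong to the small-subunit processome, 15 to large-subunit assembly and other nucleolar particles, and 7 to the RNA exosome. All 53 passed the filter on low counts, and the lowest estimated count of any of them in any library was 73.

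Ribosome production starts in the nucleolus, where RNA polymerase I makes a long precursor RNA that is folded, modified, cut and joined with ribosomal proteins. The small-subunit processome gathers on the nascent precursor around the U3 small nucleolar RNA, other factors build the large subunit, and the exosome, a ring of subunits with attached nucleases, trims and degrades RNA from its 3′ end. In budding yeast these genes are known to be transcribed together in growing cells and to be turned down on starvation. Many carry a PAC element, bound by the repressors Dot6 and Tod6, and an RRPE element, bound by Stb3, ahead of their start codons.

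The 8 poly(A) RNA libraries come from BY4743, a diploid laboratory strain labelled wild-type, with 2 replicates for each of 4 groups. The groups were cured SPO, prion SPO, cured preSPO and prion preSPO. Prion cells carry the natural [SMAUG+] prion, a heritable form of the RNA-binding protein Vts1, and cured cells are their selectively cured counterparts. For both states, preSPO libraries are from saturated cultures after 48 h in preSPO medium, and SPO libraries are from portions of them moved to SPO medium, in which diploid yeast sporulates, for a further 14 h. The medium and the age of the culture therefore changed together and cannot be told apart. That replicates are separate cultures rests on the labels alone, so the p-values measure the spread between these libraries, which may be partly technical.

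Summed estimated counts per library ranged from 4650288 to 71684771, and the first principal component separated the media with 79.6% of the variance. SPS100, a gene of spore maturation, lay between 1180 and 2440 CPM (counts scaled to the normalised library size) in the SPO libraries. In the preSPO libraries it lay between 5.50 and 7.91 CPM. Other sporulation genes differed less between SPO and preSPO. IME1 lay at 111 to 211 against 14.1 to 20.4 CPM, and NDT80 at 44.9 to 56.1 against 24.6 to 31.2. SPO11 lay at 15.4 to 24.3 against 6.01 to 9.71 CPM, and IME2 at 17.4 to 19.4 against 7.21 to 15.9. SPS1 overlapped between the media, at 5.46 to 8.91 against 2.98 to 8.8 CPM. MFA1, the a-factor gene of haploid cells, had 0 counts in every library. Other genes of haploid cells or mating type were detected. MFA2 had 0 to 12 counts, STE2 41 to 503, STE3 53 to 1094 and HO 11 to 227. MET17, a sulfur gene, had 447 and 13 counts in cured SPO, 1363 and 1 in prion SPO, 0 and 1 in cured preSPO, and 3207 and 3867 in prion preSPO. The libraries labelled prion SPO replicate 2 and cured SPO replicate 1 therefore go against their labels, and comparisons of the states in SPO medium are given for the libraries as labelled. In preSPO medium the states differed in MET17 as well as in the prion label. What goes with the prion and what goes with this difference cannot be told apart in comparisons of the states.

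The stretches ahead of 5 genes are shown because they lie before 3 of the members with the lowest SPO levels relative to preSPO (UTP6, NOP56 and UTP13) and before the only members called higher in SPO (NOP6 and RRP15). Each holds 160 bases on the coding strand, from 230 to 71 bases before the start codon, from the RefSeq genome of build R64. They lie at chrIV:1358973-1359132 (minus strand) for UTP6, chrXII:545867-546026 (plus strand) for NOP56, chrXII:581842-582001 (minus strand) for UTP13, chrIV:78037-78196 (minus strand) for NOP6 and chrXVI:818093-818252 (plus strand) for RRP15. Capitals mark the PAC core GATGAG, the RRPE core AAAATTT or the reverse complement of either; where AAAATTT is followed by T, its matches on both strands overlap in one run of capitals.
UTP6: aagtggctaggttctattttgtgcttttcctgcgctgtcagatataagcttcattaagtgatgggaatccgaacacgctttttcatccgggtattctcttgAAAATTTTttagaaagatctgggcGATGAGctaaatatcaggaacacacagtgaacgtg
NOP56: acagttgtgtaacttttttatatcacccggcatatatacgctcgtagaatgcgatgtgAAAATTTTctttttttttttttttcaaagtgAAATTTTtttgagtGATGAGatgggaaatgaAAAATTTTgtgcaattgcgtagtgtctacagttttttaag
UTP13: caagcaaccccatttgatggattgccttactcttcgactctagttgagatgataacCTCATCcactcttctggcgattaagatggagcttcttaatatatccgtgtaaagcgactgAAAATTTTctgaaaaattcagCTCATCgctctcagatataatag
NOP6: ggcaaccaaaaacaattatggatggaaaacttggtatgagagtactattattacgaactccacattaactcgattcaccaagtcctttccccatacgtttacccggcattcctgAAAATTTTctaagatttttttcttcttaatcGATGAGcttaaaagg
RRP15: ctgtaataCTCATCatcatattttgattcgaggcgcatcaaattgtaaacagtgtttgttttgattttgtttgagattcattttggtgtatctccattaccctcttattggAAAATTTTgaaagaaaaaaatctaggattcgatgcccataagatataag
All 5 stretches hold both cores, ahead of the members called lower and of the pair called higher alike.

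The genes of this group were lower in SPO medium than in preSPO medium almost throughout. Averaged over cured and prion cells, 47 of 53 fell, 2 rose (NOP6, and RRP15, which was below 0 on the TPM scale) and 4 were not called (NOP53, NOP10, UTP23 and NOP19) by edgeR's quasi-likelihood test with Benjamini-Hochberg adjustment over all 6346 genes tested, at an adjusted p under 0.05. Of all genes, 34% were called lower and 34.2% higher, 68.2% in all. The members' median log2 fold change was −1.52, against 0.02 for all genes tested. In CPM, 46 of 53 members had all 4 SPO libraries below all 4 preSPO libraries and NOP6 had them all above, where 29.4% and 29.3% of all genes did. In bulk RNA, fewer cells that express a gene and less of its RNA per cell cannot be told apart.

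As a share of all estimated counts, the 53 genes together took 0.350% and 0.327% in cured SPO, 0.401% and 0.351% in prion SPO, 1.14% and 1.29% in cured preSPO, and 1.29% and 0.818% in prion preSPO. The 4 SPO values lay close together and well under the lowest preSPO value, that of prion preSPO replicate 2. The median member stood at 59.9 and 63.2 CPM in cured SPO, 61.5 and 53.7 in prion SPO, 165 in both cured preSPO libraries, and 181 and 103 CPM in prion preSPO. Per length, on the TPM scale of transcript abundance, the highest member was NOP10, the smallest reading frame of the group with 177 coding bases, at 1368 to 2271 TPM in SPO and 3454 to 4309 TPM in preSPO. The lowest in every preSPO library was UTP20, which has the longest coding sequence of the group, 7482 bases, at 9.84 to 17.0 TPM. In SPO the lowest was UTP18 in 3 libraries and UTP15 in prion SPO replicate 2, at 2.08 to 3.42 TPM.

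**Figure D1:**
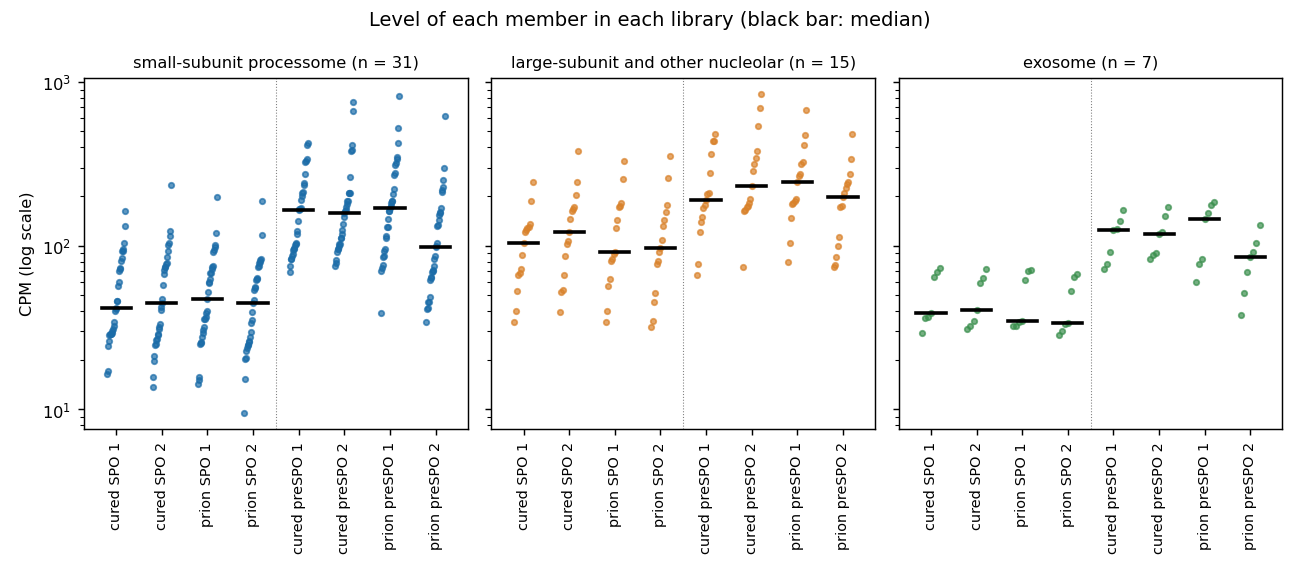
CPM of each of the 53 genes in each library on a log axis, one panel per class; points are genes and black bars class medians. The SPO medians of the small-subunit processome lie between 41.7 and 47.4 CPM and its preSPO medians between 98.9 and 170 CPM, with prion preSPO replicate 2 lowest.

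The 31 small-subunit processome genes had a median log2 fold change of −1.75, with a range of −3.34 to 0.91: 28 fell, NOP6 rose, and UTP23 and NOP19 were not called. Their median level was 41.7 and 44.5 CPM in cured SPO, 47.4 and 44.8 in prion SPO, 166 and 160 in cured preSPO, and 170 and 98.9 in prion preSPO. The 15 large-subunit and other nucleolar genes had a median of −1.09 (12 fell, RRP15 rose with TMM scaling but not on the TPM scale, and NOP53 and NOP10 were not called). The 7 exosome genes had a median of −1.17, and all 7 fell. The difference between the classes was not tested.

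Within the processome, the UtpB complex, a scaffold that contacts the 5′ end of the precursor and U3, had the lowest role median, −2.52. All 4 of its members among the 53 fell. UTP6 had 24.3 and 21.3 CPM in cured SPO, 15.2 and 20.3 in prion SPO, 210 and 188 in cured preSPO, and 312 and 104 in prion preSPO. The media did not overlap, and the preSPO replicates of prion cells lay far apart. Its log2 fold change, −3.34 (SE 0.326, adjusted p = 3.18e-05), was the lowest of the 53. UTP13 had 31.1 and 26.6 CPM in cured SPO, 35.9 and 26.2 in prion SPO, 236 and 211 in cured preSPO, and 269 and 131 in prion preSPO. Again every SPO library was below every preSPO library, and UTP13 fell by 2.83 on the log2 scale (SE 0.238, adjusted p = 1.46e-05). UTP18 and UTP21, the other UtpB members among the 53, fell too, with log2 fold changes of −2.21 and −1.73.

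The box C/D proteins bind the small nucleolar RNAs that guide methylation of ribosomal RNA, and with RRP9 they coat U3. All 4 of them among the 53 fell, with a median log2 fold change of −2.26. NOP56, one of their core scaffold proteins, had 93.2 and 77.9 CPM in cured SPO, 94.4 and 53.7 in prion SPO, 427 and 664 in cured preSPO, and 820 and 620 in prion preSPO. The SPO and preSPO libraries were far apart, and here prion preSPO replicate 2 was not the lowest of its medium. NOP56 fell by 2.98 (SE 0.242, adjusted p = 1.22e-05). NOP58, its partner, stood at −2.49 and RRP9, the U3-specific protein, at −1.68. NOP1, the methyltransferase known as fibrillarin in animals, had the smallest adjusted p of the named snoRNP genes, 3.68e-06.

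The UtpA complex binds the precursor first and is also called t-UTP for its link to rDNA transcription. Its 6 members among the 53, UTP4, UTP5, UTP8, UTP9, UTP10 and UTP15, all fell, from −2.41 for UTP15 to −1.39 for UTP5. Their median was −1.95. UTP22 and RRP7 of the UtpC complex fell as well, with −1.49 and −0.998. Among the other 15 processome factors the median was −1.52 and 12 fell. The RNA-binding protein NOP9 stood at −2.24, UTP14, which activates a helicase that releases U3, at −2.05, and NOP14 at −1.89. RRP3, a DEAD-box helicase, stood at −1.75, and UTP20, a large repeat protein, at −0.64; all 5 fell.

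**Figure D2:**
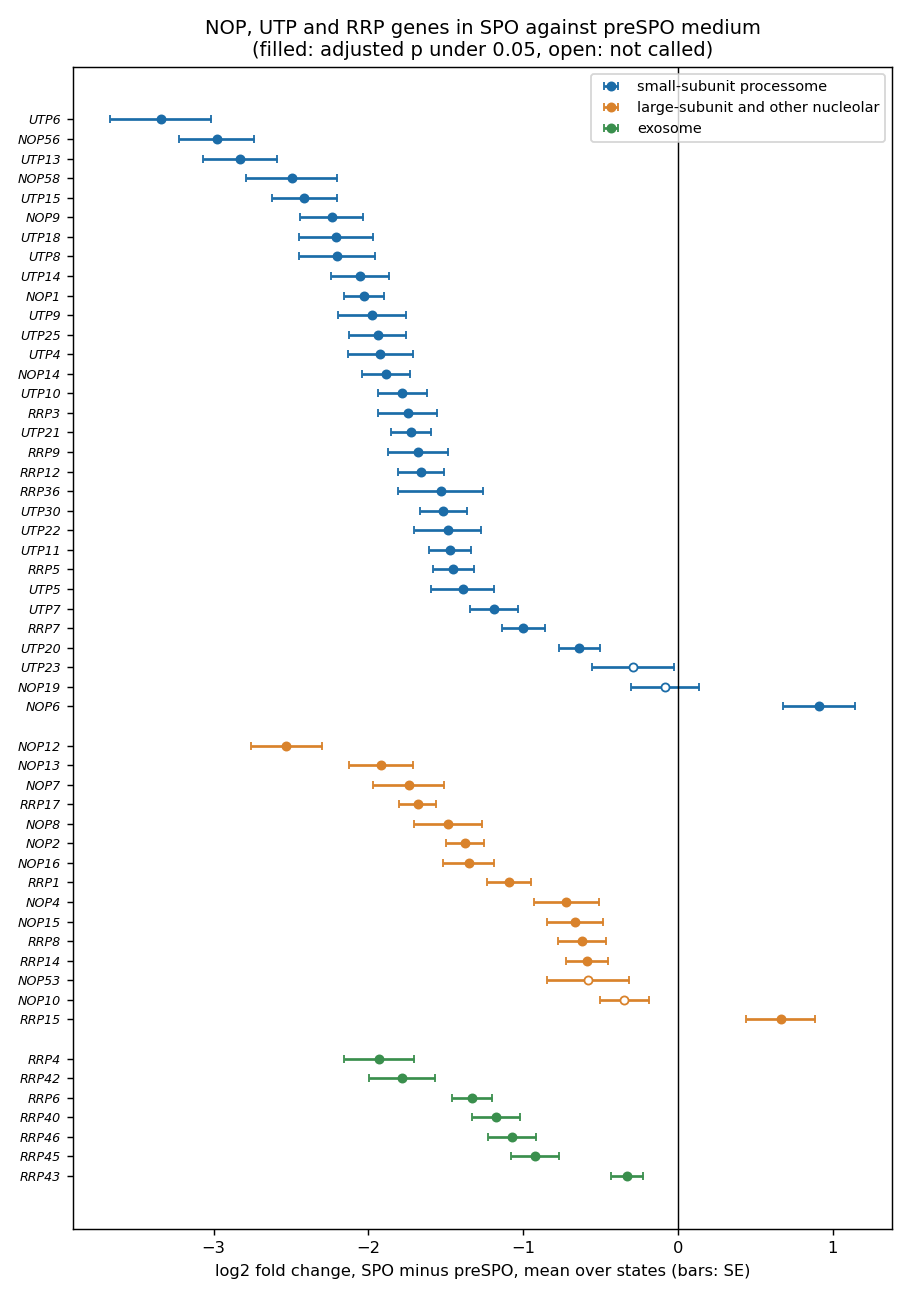
Log2 fold change of each of the 53 genes in SPO relative to preSPO, averaged over both states, by class; bars are standard errors and open points are genes not called. UTP6 lies lowest at −3.34, and NOP6 at 0.91 and RRP15 at 0.67 lie highest; RRP15 was at −0.10 on the TPM scale.

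NOP6 and NOP19 stood apart from the rest of the processome. NOP6, an RNA-binding protein of early small-subunit assembly, had 163 and 235 CPM in cured SPO, 199 and 187 in prion SPO, 74.8 and 160 in cured preSPO, and 85.9 and 98.9 in prion preSPO. All SPO libraries were above all preSPO libraries, although cured preSPO replicate 2 came within a few CPM of the lowest of them. Its log2 fold change was 0.91 (SE 0.234, adjusted p = 0.00734) with TMM scaling, but 0.15 (adjusted p = 0.549) by limma on log2(TPM + 1). In TPM, NOP6 had 105 and 99.7 in cured SPO, 134 and 110 in prion SPO, 84.2 and 153 in cured preSPO, and 92.4 and 85.9 in prion preSPO, and the media overlapped.

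That difference between scales is shared by all genes. The median log2 fold change of all genes tested was 0.02 with TMM scaling, −0.27 with library size alone and −0.72 on the TPM scale, and the share of calls that were higher was 50.2%, 35.6% and 17.8% on these scales in turn. Relative to that median, the 53 genes had medians of −1.53, −1.54 and −1.49, and NOP6 stood at 0.89, 0.90 and 0.87. A change of scale moves nearly all genes of a library by the same factor. The agreement after subtraction is therefore largely arithmetic and no independent check. Before subtraction the calls of NOP6 and RRP15 were lost on the TPM scale, where NOP6 stood at 0.15 and RRP15 at −0.10.

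NOP19, a small-subunit factor needed for cleavage of the precursor, had 34.5 and 74.3 CPM in cured SPO, 62.5 and 74.7 in prion SPO, 95.3 and 118 in cured preSPO, and 38.8 and 41.3 in prion preSPO. With the libraries as labelled, both SPO libraries were below both preSPO libraries in cured cells, and in prion cells both were above. The mean over states was −0.08 (SE 0.217, adjusted p = 0.749); it was −0.43 and called without cured SPO replicate 2 (adjusted p = 0.0342), and −0.94 and called by limma on the TPM scale (adjusted p = 0.000197). UTP23, a factor needed to release the snR30 snoRNA, was also not called, at −0.29 (SE 0.263, adjusted p = 0.352). It was called lower with library size alone (−0.60, adjusted p = 0.0464) and by limma on the TPM scale (−1.03, adjusted p = 0.000261), and stood at 0.03 without prion preSPO replicate 1.

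In large-subunit assembly, the lowest fold changes were those of NOP12, NOP13 and NOP7. NOP12, an RNA-binding protein of early large-subunit particles, had 68.0 and 66.5 CPM in cured SPO, 56.7 and 45.2 in prion SPO, 364 and 377 in cured preSPO, and 415 and 200 in prion preSPO. Every SPO library was below every preSPO library, and NOP12 fell by 2.53 (SE 0.229, adjusted p = 2.12e-05). NOP13, its relative, had 39.7 and 52.4 CPM in cured SPO, 34.4 and 31.9 in prion SPO, 139 and 172 in cured preSPO, and 184 and 99.0 in prion preSPO. The media did not overlap for NOP13, and it fell by 1.92 (SE 0.207, adjusted p = 5.64e-05). NOP7, which forms a complex with Erb1 and Ytm1, had 122 and 203 CPM in cured SPO, 183 and 177 in prion SPO, 437 and 699 in cured preSPO, and 675 and 480 in prion preSPO. Its replicates were further apart in cured than in prion SPO, without overlap between media, and it fell by 1.74 (SE 0.228, adjusted p = 0.000175).

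The enzymes of this class moved by different amounts. RRP17, a 5′ exonuclease of pre-rRNA, stood at −1.68, NOP2, a methyltransferase of the large-subunit rRNA, at −1.38, and RRP8, another such methyltransferase, at −0.62. NOP4, NOP15 and RRP14, assembly factors of the large subunit, stood at −0.72, −0.67 and −0.59, and all 6 fell. NOP4, NOP15, RRP14, RRP8, RRP43, NOP6 and RRP15 were the 7 called members that lost their call under at least one alternative setting; the other 42 kept it, all of them lower. NOP4 lost it without prion SPO replicate 1 (−0.68, adjusted p = 0.0521), and NOP4, NOP15, RRP14, RRP8 and RRP43 without both SPO libraries whose MET17 counts go against their labels, with adjusted p-values of 0.0629, 0.0822, 0.0661, 0.0729 and 0.166.

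RRP15, a nucleolar factor of large-subunit formation, had 129 and 169 CPM in cured SPO, 175 and 143 in prion SPO, 77.8 and 163 in cured preSPO, and 80.1 and 76.0 in prion preSPO. Cured preSPO replicate 2 lay inside the range of the SPO libraries, so the media overlapped. Its log2 fold change was 0.67 (SE 0.223, adjusted p = 0.0256) with TMM scaling, 0.38 (adjusted p = 0.134) with library size alone and −0.10 (adjusted p = 0.700) by limma on the TPM scale. The call was also lost without either prion preSPO library (adjusted p = 0.0619 for replicate 1 and 0.0699 for replicate 2), without prion SPO replicate 1 (0.0773) and without cured SPO replicate 2 (0.0726). Part of the reads of RRP15 was also shared: it is 1 of 8 members, with NOP4, NOP13, NOP56, NOP58, RRP9, RRP14 and RRP17, whose estimated counts were not whole numbers (tolerance 1e-06), as happens when kallisto divides reads between targets.

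NOP10, a core protein of the box H/ACA particles that guide pseudouridylation, had 188 and 246 CPM in cured SPO, 257 and 261 in prion SPO, 279 and 343 in cured preSPO, and 245 and 340 in prion preSPO. The media overlapped, and it was not called, at −0.35 (SE 0.160, adjusted p = 0.0825). It was called lower in 6 of 16 alternative settings: by limma on the TPM scale (−1.15, adjusted p = 2.23e-06), with library size alone (−0.64, adjusted p = 0.00358), with the replicate number (0.0391) or the culture (−0.34, adjusted p = 0.0411) as a block, and on leaving out prion preSPO replicate 1 (0.0311) or cured SPO replicate 2 (0.0454). NOP53, which brings the exosome's helicase to the precursor of the large subunit, was not called either, at −0.58 (SE 0.265, adjusted p = 0.0790). It was called lower in 7 of 16: by limma on the TPM scale (−1.33, adjusted p = 1.17e-06), with library size alone (−0.89, adjusted p = 0.00676), by DESeq2 (0.0326), with the culture as a block (−0.53, adjusted p = 0.0318), and without prion preSPO replicate 2 (0.0241), cured preSPO replicate 1 (0.0351) or cured SPO replicate 2 (0.0445).

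Of the exosome, RRP4 and RRP40 form part of the cap that threads RNA, RRP42, RRP43, RRP45 and RRP46 part of the ring, and RRP6 is the nuclear exonuclease attached to it. RRP4 had 38.8 and 31.2 CPM in cured SPO, 32.5 and 33.6 in prion SPO, 128 and 118 in cured preSPO, and 185 and 85.7 in prion preSPO. RRP42 had 36.3 and 34.5 CPM in cured SPO, 32.4 and 30.1 in prion SPO, 124 and 121 in cured preSPO, and 145 and 68.8 in prion preSPO. For both the SPO libraries agreed closely, and the fold changes were −1.93 (SE 0.227, adjusted p = 9.37e-05) for RRP4 and −1.78 (SE 0.214, adjusted p = 0.000105) for RRP42. RRP6 had 64.6 and 58.8 CPM in cured SPO, 70.2 and 64.8 in prion SPO, 165 and 173 in cured preSPO, and 177 and 134 in prion preSPO, and fell by 1.33 (SE 0.129, adjusted p = 3.17e-05). RRP40 and RRP46 fell as well, with log2 fold changes of −1.17 and −1.07.

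The members of the ring did not move by one amount. RRP45 had 29.3 and 32.4 CPM in cured SPO, 34.7 and 33.3 in prion SPO, 72.3 and 83.6 in cured preSPO, and 59.8 and 37.6 in prion preSPO. Its lowest preSPO library, prion replicate 2, lay just above the SPO libraries, and it fell by 0.92 (SE 0.158, adjusted p = 0.000801). RRP43 had 73.2 and 72.6 CPM in cured SPO, 71.4 and 67.1 in prion SPO, 91.1 and 90.2 in cured preSPO, and 83.4 and 92.2 in prion preSPO. Its libraries agreed within each medium, and the fall of 0.33 (SE 0.102, adjusted p = 0.0183) was the smallest among the called members. RRP43 lost its call without cured preSPO replicate 1 (adjusted p = 0.0522) and without either prion SPO library (0.0567 for replicate 1 and 0.0810 for replicate 2). In the states taken singly, RRP43 and RRP45 were the exosome members not called in prion cells, with 5 of 7 called, and 6 of 7 were called in cured cells.

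**Figure D3:**
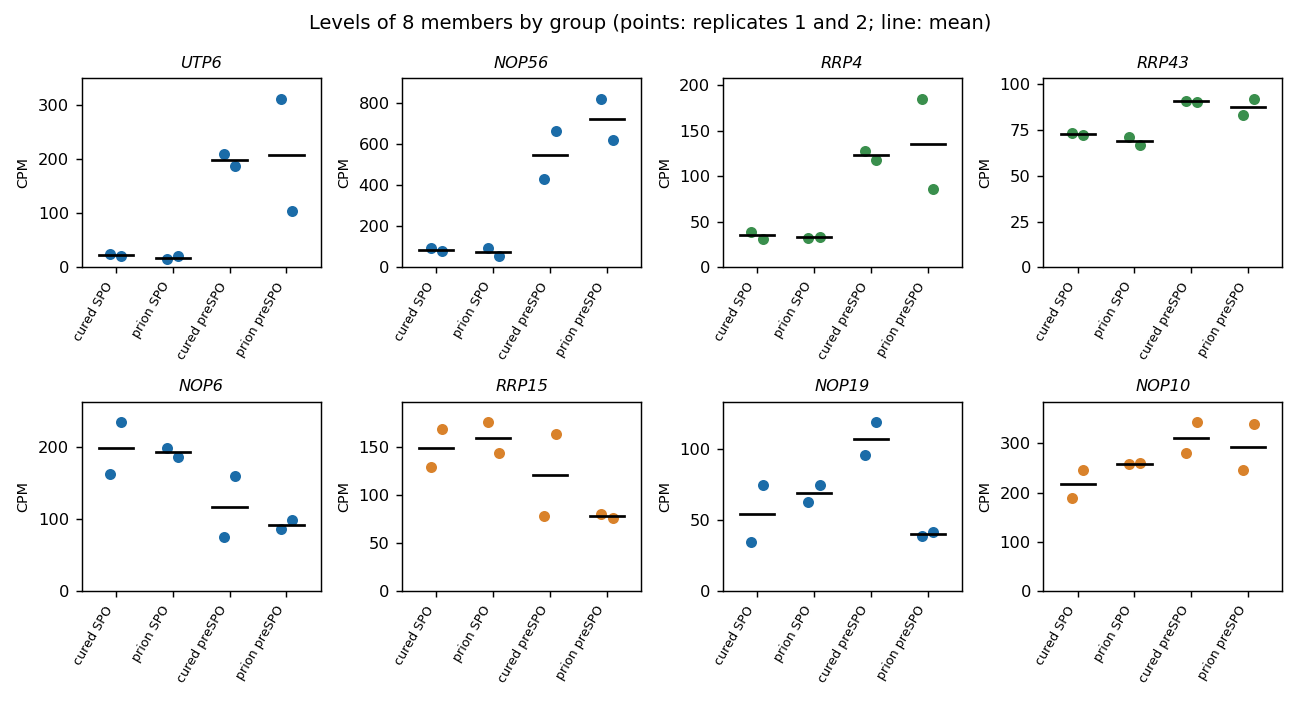
CPM of 8 genes in the 4 groups; points are replicates, lines group means, each panel on its own axis from 0. UTP6, NOP56 and RRP4 are far lower in SPO, RRP43 is slightly lower, NOP6 is higher in every SPO library, and RRP15 and NOP10 overlap between the media. With the libraries as labelled, NOP19 is lower in SPO in cured cells and higher in prion cells.

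Taken by state, 47 of 53 members fell in cured cells, none rose and 6 were not called, with a median of −1.62, while 28.6% of all genes were called lower and 28.6% higher, 57.2% in all. In prion cells 43 fell, 2 rose and 8 were not called, with a median of −1.63, while 27.1% of all genes were called lower and 26.2% higher, 53.3% in all. The pair that rose in prion cells was again NOP6, at 1.06 (SE 0.332, adjusted p = 0.0248), and RRP15, at 1.03 (SE 0.318, adjusted p = 0.0241). In cured cells NOP6 stood at 0.76 (SE 0.329, adjusted p = 0.0759) and RRP15 at 0.30 (SE 0.314, adjusted p = 0.432). In prion cells both lost their call without any 1 of the 4 prion libraries, with adjusted p-values of 0.0627 to 0.122 for NOP6 and 0.0507 to 0.111 for RRP15; in cured cells both passed without cured preSPO replicate 2, NOP6 at 1.41 (adjusted p = 0.00619) and RRP15 at 0.94 (adjusted p = 0.0223), and NOP6 also without cured SPO replicate 1, at 0.99 (adjusted p = 0.0486). Leaving out the pair of SPO libraries whose MET17 counts go against their labels, 42 members fell and 2 rose in the mean over states, with a median of −1.50, while 27.8% of all genes were called lower and 27.4% higher. A further fit took the letter in the sample descriptions as the culture and used it as a block. In it 49 members fell and 2 rose in the mean over states, where 35.6% of all genes were called lower and 36.1% higher. With the replicate number as the block instead, 48 fell and 2 rose in that mean, where 35.4% and 35.7% of all genes did. In the fit by culture 49 fell and 1 rose in cured cells (31.2% and 31.1% of all genes) and 44 fell and 3 rose in prion cells (29.2% and 29.7%). The calls gained were NOP6, higher in cured cells (0.83, adjusted p = 0.00673), as it also was by DESeq2 without a block (adjusted p = 0.0387), NOP10 and NOP15, lower in cured cells (adjusted p = 0.0351 and 0.0296), NOP19, higher in prion cells (0.77, adjusted p = 0.0136), and RRP8, lower in prion cells (adjusted p = 0.0315), beside NOP10 and NOP53 in the mean over states.

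Beyond the 53, the rest of the pathway was read from lists of 119 further factors, of which 93 fell and 8 rose in the mean over states with TMM scaling, with a median of −1.23. Of all genes, 34% were called lower and 34.2% higher in that comparison, with a median of 0.02. Of the other small-subunit factors 29 of 32 fell and none rose (median −1.37). IMP3, a partner of the U3 particle, had 13.8 and 7.59 CPM in cured SPO, 9.43 and 8.25 in prion SPO, 125 and 99.7 in cured preSPO, and 180 and 93.9 in prion preSPO. The log2 fold change was −3.73 (SE 0.271, adjusted p = 6.59e-06), the lowest of its list, while PNO1 was the highest at 0.05 and not called.

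Of the other large-subunit factors 42 of 48 fell and 2 were called higher (median −1.44), from URB2 at −2.87 to RPF1 at 0.67. RPF1 and RRS1, which belong to complexes of early large-subunit assembly, were called higher with TMM scaling at 0.67 and 0.32, but stood at −0.12 and −0.47 on the TPM scale, where neither was called. Of the other exosome and TRAMP genes 9 of 12 fell and none rose (median −0.77), with AIR2, an RNA-binding subunit of TRAMP, lowest at −2.02 and LRP1, a partner of Rrp6, highest at 0.06. The other snoRNP proteins split, with 5 lower and 4 higher of 12 and a median of 0.03, or −0.73 on the TPM scale. With TMM scaling this was near all genes, of which 34% were called lower and 34.2% higher, with a median of 0.02. RVB1, an ATPase of the snoRNP assembly machinery, fell, at −1.50, and PIH1, TAH1, BCD1 and RSA1, also assembly factors, were called higher, PIH1 most at 1.19; on the TPM scale none of these 4 was called, and PIH1 stood at 0.36. Of 15 RNA polymerase I genes 8 fell and 2, the initiation factors RRN5 and RRN7, were called higher (median −0.40), from the subunit RPA49 at −3.22 to RRN5 at 0.94; on the TPM scale RRN5 was at 0.12 and RRN7 at −0.11, and neither was called.

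The 14 regulators of the pathway did not move one way: 3 fell, 5 were called higher with TMM scaling, of which CRF1 alone also on the TPM scale, and 6 were not called. As a list they did not stand out from all genes, of which 34% were called lower and 34.2% higher. Their median was −0.02, against 0.02 for all genes. CRF1, a corepressor of ribosomal protein genes, had 351 and 387 CPM in cured SPO, 367 and 418 in prion SPO, 29.6 and 32.5 in cured preSPO, and 27.5 and 33.0 in prion preSPO. The media were far apart in both states, and CRF1 rose by 3.63 (SE 0.141, adjusted p = 3.54e-07). Of the PAC-binding repressors, TOD6 fell by 1.97 (SE 0.196, adjusted p = 3.61e-05) and DOT6 was called higher at 0.59 (SE 0.155, adjusted p = 0.00867), with −0.20 and no call on the TPM scale. SFP1, an activator of ribosome genes, and MRS6, whose protein binds Sfp1, fell, with −0.95 and −0.61. The kinase genes SCH9, RIM15 and TOR2 were called higher at 1.05, 0.49 and 0.46, but not on the TPM scale, where they stood at 0.24, −0.27 and −0.29. STB3, the RRPE-binding protein, was at −0.11, and IFH1, GIS1, FHL1, RAP1 and TOR1, at −0.11, −0.09, −0.03, 0.00 and 0.12, were not called either.

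Both motif cores were common ahead of the 53 genes. In the 300 bases before the start codon, searched on both strands, the PAC core GATGAG was found before 43 members (81.1%), against 19.1% of 6001 protein-coding genes. The RRPE core AAAATTT was found before 47 (88.7%), against 24.4%, and both before 38 (71.7%), against 7.5%. By class, both cores were found before 13 of 15 large-subunit and other nucleolar genes (86.7%), 23 of 31 processome genes (74.2%) and 2 of 7 exosome genes (28.6%). RRP45 was the member with neither.

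The matches lay at similar distances. Of 63 PAC matches ahead of members, 76.2% were between 80 and 180 bases before the start codon, against 43.7% over all genes, with a median of 119 bases. Of 107 RRPE matches 78.5% were in that band, against 51.3% over all genes, with a median of 132 bases. Overlapping matches on both strands, as in AAAATTTT, were counted separately, so there are fewer RRPE sites than matches. As a description, members with both cores had a median log2 fold change of −1.67 (n = 38) and the other members −1.33 (n = 15). Among genes that are not members, those with both cores had a median of −0.63 (n = 409) and those without both 0.03 (n = 5346). A match is only a run of letters, and no binding was measured here.

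**Figure D4:**
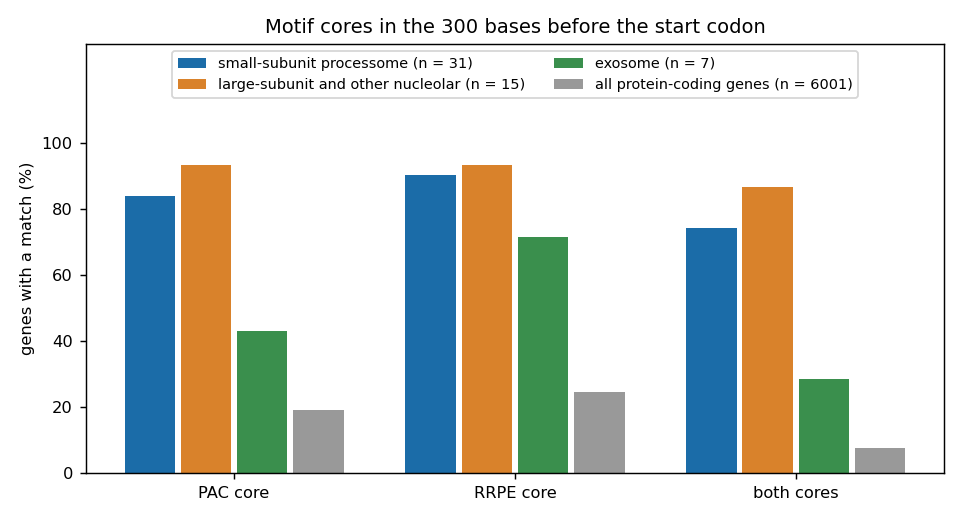
Share of genes, in percent, with the PAC core, the RRPE core or both in the 300 bases before the start codon, for the classes and for all protein-coding genes. Both cores are found before 74.2% of processome, 86.7% of large-subunit and 28.6% of exosome genes, against 7.5% of all genes.

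None of the 53 coding sequences overlaps another gene of the R64 RefSeq table, which does not hold 687 of the targets, and 25 (47.2%) have a divergent upstream neighbour, against 51.8% of 5993 genes. RRP3 shares its upstream region with SSF1, a large-subunit factor that fell by 1.35. NOP56 lies downstream of PWP1, another large-subunit factor, which fell by 1.84. UTP13 lies downstream of IFH1, which was not called.

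Between the states, no member was called. In preSPO medium the members' median was 0.14 for cured relative to prion cells. By edgeR 0 of 53 passed an adjusted p of 0.05, with 0.930% of all genes called. An unadjusted p under 0.05 was found for 6 of 53 members, a smaller share than the 1264 of 6346 genes tested. DESeq2 called 4 members, NOP16, NOP19 and UTP30 higher and NOP2 lower in cured cells, with 6.95% of all genes called, and limma on log2 TPM called NOP19 alone, with 1.48% of all genes called. NOP19 had 95.3 and 118 CPM in cured preSPO and 38.8 and 41.3 CPM in prion preSPO, a log2 difference of 1.42 (SE 0.313, adjusted p = 0.0766 by edgeR). UTP30, a processome factor related to a ribosomal protein, had 94.8 and 102 CPM in cured preSPO, against 70.0 and 45.1 CPM in prion preSPO, a difference of 0.78 (SE 0.207, adjusted p = 0.113). NOP16, a large-subunit assembly factor, had 434 and 536 CPM in cured preSPO and 315 and 239 CPM in prion preSPO, a difference of 0.81 (SE 0.228, adjusted p = 0.125). The cured libraries were above the prion libraries in each of these 3, without overlap. That held for 9 members, with NOP2 the 1 member that was lower without overlap, where 23% of all genes were higher and 23.9% lower without overlap.

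The preSPO comparison rested on which prion library was used. Prion preSPO replicate 2 was the lowest of the 4 preSPO libraries for 41 of 53 members (77.4%), against 31.0% of all genes, and on the first principal component it stood at −42.2, nearest to the SPO libraries, where the other 3 preSPO libraries stood between −64.2 and −51.3. Without prion preSPO replicate 1, which leaves replicate 2 as the only prion preSPO library, 10 members were called higher in cured cells with a median of 0.62, and 3.31% of all genes were called higher. These were RRP42, RRP45, UTP6, UTP7, UTP9, UTP18, UTP25, UTP30, NOP9 and NOP12. Without prion preSPO replicate 2, no member was called and the median was −0.10. In such a fit the lone prion preSPO library is assumed to vary like the other groups.

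**Figure D5:**
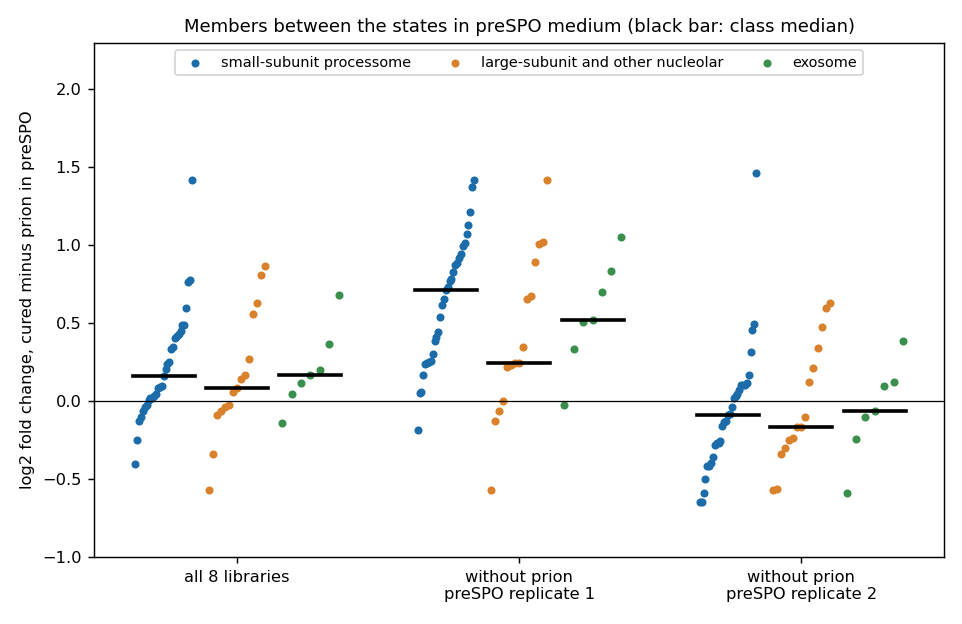
Log2 fold change of each gene in cured relative to prion preSPO in 3 fits, which use all libraries, all but prion preSPO replicate 1, or all but prion preSPO replicate 2; points are genes, black bars class medians. The points shift up when replicate 1 is left out (median of all 53 genes 0.62) and down when replicate 2 is left out (median −0.10); with all libraries the median is 0.14.

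In SPO medium the members' median was 0.06 for the libraries labelled cured relative to those labelled prion. None of 53 was called by edgeR, where 0.0315% of all genes were called, and DESeq2 and limma called none. By edgeR no member had an unadjusted p under 0.05, where 154 of 6346 genes did. The smallest p-values were those of NOP13, NOP2 and RRP46, whose differences were 0.49 (SE 0.289), 0.24 (SE 0.168) and 0.31 (SE 0.220), each with an adjusted p of 1.0 by edgeR. RRP46 had 36.5 and 40.6 CPM in cured SPO and 34.2 and 28.5 CPM in prion SPO. NOP2 had 104 and 86.6 CPM in cured SPO, against 83.5 and 77.4 CPM in prion SPO. Without overlap, 16 members were higher and 3 lower (RRP45, RRP6 and NOP10) in cured SPO, where 16.1% and 16.2% of all genes were. These differences were small beside those between the media, and 2 of the 4 libraries go against their labels.

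The difference between the states' responses to SPO medium was tested as an interaction. It used the SPO libraries as labelled, although MET17 goes against the labels of cured SPO replicate 1 and prion SPO replicate 2. By edgeR 0 of 53 members passed, and 0.0158% of all genes were called. An unadjusted p under 0.05 was found for 3 of 53 members, a smaller share than the 791 of 6346 genes tested. DESeq2 and limma each called NOP19 alone, with 2.1% and 0.646% of all genes called. NOP19 stood at −0.94 (SE 0.307, adjusted p = 0.0273) in cured cells and 0.78 (SE 0.311, adjusted p = 0.0623) in prion cells, a difference of −1.72 (SE 0.437, adjusted p = 0.215). Its call in cured cells was lost without cured preSPO replicate 2 (adjusted p = 0.121) or cured SPO replicate 1 (adjusted p = 0.0811), and in prion cells it passed without cured SPO replicate 1 (adjusted p = 0.00817) or cured SPO replicate 2 (adjusted p = 0.00823), by DESeq2 (adjusted p = 0.0382) or with the culture as a block (adjusted p = 0.0136). NOP2 followed with 0.81 (SE 0.236, adjusted p = 0.264): it stood at −0.97 in cured and −1.78 in prion cells, both called, with 190 and 182 CPM in cured preSPO and 276 CPM in both prion preSPO libraries. RRP45 had a difference of −0.82 (SE 0.313, adjusted p = 0.343). The median of all 53 was −0.06.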

How the data were processed

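The 8 deposited tables give a length, a TPM value and an estimated count per target. Per the submitters' processing notes, the authors made them with kallisto against build R64; neither its version nor its index or strand setting is stated in them. The deposited estimated counts are expected counts that need not be whole, and they were rounded. The deposited TPM values were used as the authors gave them. Of 6713 targets, 6026 (89.8%) matched a locus tag in the RefSeq table of R64, and 6711 lengths are divisible by 3. Lengths are therefore coding lengths.

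Counts were tested with edgeR 4.0.16 (quasi-likelihood F-test, TMM, filterByExpr) in R 4.3.3 with group means of the 8 libraries (4 residual degrees of freedom) and 6346 genes. The Benjamini-Hochberg method adjusted the p-values, which are two-sided. CPM values use the TMM-scaled library sizes. DESeq2 1.42.0, limma 3.58.1 on log2(TPM + 1), other scalings, no filter, each library left out and replicate blocks were alternatives. The culture block pairs libraries by the letters in the descriptions, since per the labels' protocols SPO cells are the rest of a preSPO culture (deviations of paired libraries correlated at 0.316 in cured and 0.071 in prion cells). Between groups that share no culture by these letters, the correlations ran from −0.049 to 0.182. The prion value lay inside that range and the cured value above it. The descriptions do not explain the letters, so reading them as cultures is an assumption. MET17 puts 2 of the culture pairs in doubt. A recount of the main calls without the 8 members with fractional counts, which is no new fit, was added after the data were seen. The scripts were tested on simulated data.

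Values in every library are given for the 3 lowest and 2 highest fold changes per class and members called higher in SPO. For the 3 smallest p-values per state comparison, values are given at least in the libraries compared. Other pathway genes are named as the extremes of their list, and any further gene was chosen after its values were seen. The members and lists were chosen with earlier results of these data known. Of 137 other pathway genes listed, 133 matched a symbol.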

Additional observations from a re-analysis of the deposited data

Results flagged for a closer look

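NOP19 was picked out because, as labelled, both of its cured SPO libraries were below both cured preSPO libraries, while both prion SPO libraries were above both prion preSPO libraries. MET17 counts go against the labels of cured SPO replicate 1 and prion SPO replicate 2. Cured SPO replicate 1 had 34.5 CPM of NOP19, below both prion preSPO libraries (38.8 and 41.3). Taken as a prion library, it would end the separation in prion cells. Prion SPO replicate 2, at 74.7 CPM, was below both cured preSPO libraries (95.3 and 118). The difference between the responses was −1.72 on the log2 scale (edgeR adjusted p = 0.215), so it did not pass the test, although DESeq2 and limma called it. Opposite movement without overlap was seen for 1 of 53 members and for 3.18% of all genes.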

How the results depend on the processing

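The number of members called in SPO against preSPO stayed within 1.5 times its value under every alternative run, in the mean over states and in each state, and 42 of 49 calls in the mean, 39 of 47 in cured cells and 34 of 45 in prion cells held under all of them. Between the states in preSPO medium, where no member was called, 1 was called with library size alone, 4 by DESeq2, 1 by limma on log2 TPM and 1 with the replicate block, and 0 to 10 when 1 library was left out. Over all genes that comparison ranged from 0 to 468 calls when 1 library was left out. For the interaction DESeq2 and limma called 1 member each. Some single values changed sign. On the TPM scale RRP15 was at −0.10 in the mean and −0.59 in cured cells, NOP6 at −0.15 in cured cells, and NOP2 at −0.018 between the states in SPO medium. RRP15 in cured cells was at −0.10 with library size alone, and at −0.13 (without cured preSPO replicate 1) to 0.94 when 1 library was left out. When 1 library was left out, NOP19 in the mean ranged from −0.43 to 0.12 (without cured SPO replicate 1) and UTP23 from −0.52 to 0.033 (without prion preSPO replicate 1). NOP19 stood at −0.94 on the TPM scale and at 0.051 without both SPO libraries whose MET17 counts go against their labels. The cause was not tested. With the replicate number as a block, in place of the culture, 50 members were called in the mean. That block added NOP10 in the mean and in cured cells, NOP6 in cured cells, NOP19 in prion cells and NOP19 between the states in preSPO medium (1.40, adjusted p = 0.0284). No call was lost under either block. The same number in cured and prion cells marks no shared culture in the labels. With 2 libraries a group, small differences between the states cannot be resolved.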
